A study of Mus musculus with 60 samples.

Results

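Whole brown adipose tissue (BAT) of the groups named D4 was compared between mice with and without the Foxp3-linked diphtheria toxin receptor. The comparison took every library of the count table whose title names BAT, D4 and genotype DTR+ or DTR-, which gave 8 of the 60 libraries of the series, 4 per genotype. All 8 came from 8-week-old males of strain B6.Foxp3.DTR, and both genotypes were given diphtheria toxin (DT). In this strain the transgene puts the toxin receptor on cells that express Foxp3, the transcription factor of regulatory T (Treg) cells, so that toxin removes those cells in DTR+ mice and not in DTR- mice. The toxin itself is therefore common to both groups, every Treg cell of the body is a target in DTR+ mice, and the libraries hold RNA of the whole tissue. Whether D4 is a day after toxin is not stated in the labels, nor are the time of day of collection or whether the numbered replicates are separate animals. The p-values below therefore rest on the variation among these libraries, part of which may be technical.

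Brown fat burns fatty acids and glucose in mitochondria whose proton gradient is short-circuited by the uncoupling protein Ucp1, and it feeds this with its own fatty acid and triglyceride synthesis. Treg cells are CD4 T cells that restrain other lymphocytes and macrophages, and they live in fat as well as in lymphoid organs. Interferon gamma, made by T and NK cells, signals through Jak kinases to genes that carry the GAS motif, while type I interferons act through a factor complex that holds Irf9 on the ISRE motif.

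Of 11695 genes tested with edgeR's quasi-likelihood test, 1021 (8.73%) rose in DTR+ relative to DTR- tissue and 861 (7.36%) fell, at a Benjamini-Hochberg adjusted p under 0.05, with a median log2 fold change over all genes of 0.017. A gene entered the test where at least 4 libraries reached 1.68 CPM. Of the genes tested, 10153 reached that level in all 4 DTR- libraries, and 699 of them rose. The other 1542 entered with the help of DTR+ libraries, a choice that favours rises, and 322 of them rose. Any gene below with a DTR- value under 1.68 CPM is of this kind, also where it is not repeated, and its p-value carries that limit. Values are given as counts scaled to a common library size (CPM, with TMM factors), in the order of replicates 1 to 4, and fold changes are log2 of DTR+ over DTR-. The CPM of the groups did not overlap in 2365 of the 11695 genes tested. No overlap was also a condition for naming some genes, so it is not separate support for those. The totals ran from 3616464 to 7670438 counts per library. The TMM factors did not overlap between the groups (0.886 to 0.939 in DTR- and 1.08 to 1.12 in DTR+), and with library totals alone the median of all genes moved to 0.27, with 2280 genes higher and 239 lower. Skeletal muscle RNA differed widely between libraries of both groups. The summed CPM of 14 muscle genes was 77.6, 87.0, 2579 and 2159 CPM in DTR- and 6034, 112, 449 and 70.2 CPM in DTR+, and 0 of the 13 tested were called by edgeR, with 0 at an unadjusted p under 0.05 and 0 by DESeq2. Without the 3 libraries richest in it (DTR- replicates 3 and 4 and DTR+ replicate 1), a choice made after seeing the data that leaves 2 DTR- and 3 DTR+ libraries, 896 genes were higher and 534 lower. All 1882 genes called with 8 libraries had the same sign in that smaller fit, and 1173 of them were called in it. That fit reuses libraries by which these genes were called, so agreement of sign is favoured and is no independent check. Of the genes named below as rising or falling, Ifngr2, Ifnar1, Ighm, Lipa, S100a9, Btg2, Atf5, Psph, Fos, Orm1, Hlf, Hcar2, Gnai2, Ptger3, Tle3, Mlxipl, Acly, Fasn, Agpat4, Lipe, Plin4, Angptl4, Scarb1, Igf1, Vwf, Thy1, Cd34, Col3a1 and Hbb-bt were not called there. With library totals Cidea, Cox7a1, Lipa, Atf5, Psph, Hspd1, Hspa9, Orm1, Ptger3, Mlxipl, Hmgcs1, Lipe, Vldlr, Nrg4, Kdr, Acsl1, Hba-a2 and Hbb-bt were not called, while Ifngr1, Jak1, Ifnar2, Pecam1, Apoe, Ctsb, Hspa5 and Idh2, given below as uncalled, were.

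Brown fat markers were present in every library, as the tissue label has it. Ucp1 (mm10 chromosome 8, 83290352 to 83298452) stood at 6208, 5373, 5649.8 and 4557 CPM in DTR- and 2371, 2492, 2605 and 2827 CPM in DTR+. The lipid droplet protein Cidea, the respiratory chain subunits Cox7a1 and Cox8b and the potassium channel Kcnk3 were also present in each, with lowest values of 4333, 601, 1567 and 156 CPM. Foxp3 could not serve as a check of depletion, since its counts were 2, 0, 0 and 0 in DTR- and 0 in each DTR+ library. Il2ra, the CD25 chain that Treg cells carry and activated T cells also make, had 1, 3, 4 and 2 counts in DTR- and 11, 8, 1 and 3 in DTR+. A count of 0 allows up to 3 counts in a library, and both genes were too low to be tested. Ifng itself had 0 counts in DTR- and 1 in DTR+ over all 4 libraries of each group.

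Promoter stretches are shown first for 5 genes of the interferon response described next, chosen because each holds a GAS or ISRE match within 250 bases before its start. The motifs searched on both strands were TTCNNNGAA for GAS and the core GAAANNGAA for ISRE, in RefSeq promoters of 300 bases (250 before to 50 after the start, GRCm38.p6, the assembly of mm10), and capitals mark the matches.
Irf1 (chr11:53769904-53769952, plus strand, 110 to 62 bases before the start): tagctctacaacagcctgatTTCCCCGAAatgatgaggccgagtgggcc
Igtp (chr11:58199491-58199550, plus strand, 65 to 6 bases before the start): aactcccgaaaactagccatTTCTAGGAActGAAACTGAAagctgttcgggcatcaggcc
Gbp7 (chr3:142530210-142530312, plus strand, 126 to 24 bases before the start): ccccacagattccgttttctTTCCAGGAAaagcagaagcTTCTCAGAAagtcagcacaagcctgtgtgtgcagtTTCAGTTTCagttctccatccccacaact
B2m (chr2:122147528-122147576, plus strand, 159 to 111 bases before the start): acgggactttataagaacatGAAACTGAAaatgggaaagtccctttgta
Oas3 (chr5:120777700-120777754, minus strand, 95 to 41 bases before the start): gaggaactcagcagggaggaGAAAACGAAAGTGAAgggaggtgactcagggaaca
The stretch of Irf1 holds 1 GAS match, those of B2m and Oas3 hold 1 and 2 ISRE matches, and those of Igtp and Gbp7 hold both motifs, with 1 and 2 GAS matches beside 1 ISRE match each. No GAS match overlaps an ISRE match in these 5, whereas the 2 ISRE matches of Oas3 overlap each other. Over all 27025 genes of the promoter table, 9.55% hold a GAS match and 9.76% an ISRE match in a promoter of that length. Among the tested guanylate-binding proteins with a promoter entry, 4 of 4 hold an ISRE match and 2 a GAS match, and among 8 immunity-related GTPases 6 and 5 do. Of 17 genes of MHC class I antigen processing 5 hold an ISRE match and 2 a GAS match. For the genes of de novo fatty acid synthesis, which fell (below), the counts were 1 and 0 of 18. A match is a description of these letters and not a binding site.

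Of 11 tested genes of the interferon gamma axis 6 rose and 0 fell (median log2 fold change 0.60). In 1 of the 6 the entry to the test had the help of DTR+ libraries. The receptor chain Ifngr2 rose by 0.60 ± 0.14 (SE, adjusted p = 0.006), while Ifngr1, the ligand-binding chain, was at 0.26 ± 0.10 and the kinase Jak1 at 0.16 ± 0.11, neither of them called. Irf1, a transcription factor that interferon gamma induces, read 33.0, 28.5, 42.7 and 25.7 CPM in DTR- and 138, 170.5, 221 and 283 CPM in DTR+. The lowest DTR+ library was above 3 times the highest DTR- library for Irf1, which rose by 2.64 ± 0.25 (SE, adjusted p = 0.0002). Also called were Irf8, a factor of the macrophage lineage (1.82 ± 0.39), Il18bp, the decoy that binds interleukin 18 (1.74 ± 0.24), and Socs1, the inhibitor of Jak kinases (adjusted p = 0.011).

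The type I interferon branch had 6 of 9 tested genes higher and 0 lower. Of the receptor chains, Ifnar1 rose by 0.42 ± 0.11 (SE, adjusted p = 0.013) and Ifnar2 was at 0.06 ± 0.10. Ifnar1 lost its call without DTR- replicate 2 (adjusted p = 0.061). Irf7, which amplifies type I interferon production, read 7.69, 9.19, 13.9 and 8.22 CPM in DTR- and 47.9, 79.8, 83.7 and 104 CPM in DTR+, so that all DTR+ libraries lay above all DTR- libraries, and rose by 3.00 ± 0.25 (SE, adjusted p = 2.7e-05). Stat2 rose by 1.99 ± 0.17, Irf9 by 1.49 ± 0.15 and Usp18, the protease that removes Isg15 and limits the receptor, by 2.55 ± 0.29.

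Among the effectors, the GTPases that attack vacuoles of pathogens had the highest medians of all lists. All 9 tested guanylate-binding proteins and 8 of 9 tested immunity-related GTPases rose, with medians of 3.01 and 3.32. Of these, 3 and 2 entered the test with the help of DTR+ libraries. Irgq, at 0.24 ± 0.18, was the one not called. Igtp (chromosome 11, 58199556 to 58207591) read 19.9, 20.3, 21.4 and 16.4 CPM in DTR- and 167, 282, 223 and 478 CPM in DTR+ and rose by 3.87 ± 0.36 (SE, adjusted p = 0.00066). Iigp1 (chromosome 18, 60376027 to 60392634) read 13.9, 10.8, 29.8 and 11.1 CPM in DTR- and 156, 375, 336 and 533 CPM in DTR+. Gbp7 read 26.1, 20.5, 21.3 and 18.7 CPM in DTR- and 114, 192, 155 and 237 CPM in DTR+ and rose by 3.01 ± 0.22 (SE, adjusted p = 1.2e-05). In these 3 genes DTR+ replicate 4 was the highest library and DTR+ replicate 1, which also held the most muscle RNA, the lowest of its group, and all DTR+ libraries lay above every DTR- library. Gbp10 had the largest fold change of the lists, 5.57 ± 0.70 (SE, adjusted p = 0.0017), from 1.12, 0.82, 0.841 and 0 CPM in DTR- and 18.3, 38.0, 19.1 and 69.8 CPM in DTR+. Irgm2 overlaps Igtp on the same strand, and several of these GTPases are near copies of each other, so the split of reads between them is uncertain.

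Antiviral effectors of the type I list rose in 23 of 24 cases (median 2.18), 9 of them genes that entered the test with the help of DTR+ libraries. Those that rose included Bst2, which tethers budding virus (1.99 ± 0.22), Ifitm3, which blocks viral entry (1.64 ± 0.19), and Rsad2, which makes a chain-terminating nucleotide (2.17 ± 0.19). Isg20, a ribonuclease, was at 0.17 ± 0.23 and not called. Oas3, an activator of RNase L, was near the detection limit in DTR-, with 0, 0, 1.40 and 0 CPM in DTR- and 3.00, 4.63, 8.78 and 9.23 CPM in DTR+, and rose by 3.94 ± 0.87 (SE, adjusted p = 0.009). Sensors of nucleic acid were higher in 10 of 14 cases, 4 of which entered that way. Zbp1, a sensor of Z-form nucleic acid that can start necroptosis, read 0.801, 1.80, 1.82 and 1.85 CPM in DTR- and 13.4, 35.4, 40.2 and 52.3 CPM in DTR+, and rose by 4.47 ± 0.45 (SE, adjusted p = 0.0001). Sting1, the adaptor for cytosolic DNA, rose by 1.31 ± 0.28.

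Antigen presentation on MHC class I rose nearly throughout, by smaller factors. Of 21 genes 20 rose, with a median of 1.25, and 1 of the 20 entered the test with the help of DTR+ libraries. Nlrc5, the transactivator of class I genes, read 3.20, 4.43, 5.74 and 5.34 CPM in DTR- and 29.2, 34.4, 26.7 and 42.1 CPM in DTR+ and rose by 2.81 ± 0.23 (SE, adjusted p = 2.6e-06). The light chain B2m read 516, 571, 701 and 510.0 CPM in DTR- and 1056, 1498, 1120.1 and 1417 CPM in DTR+ and rose by 1.15 ± 0.13, and the heavy chains H2-K1 and H2-D1, near copies of each other, by 1.07 ± 0.12 and 1.07 ± 0.12. Subunits that replace parts of the proteasome under interferon rose while its standard subunits did not. The 3 catalytic subunits of the immunoproteasome rose, Psmb8 by 2.40 ± 0.26, Psmb9 by 2.42 ± 0.23 and Psmb10 by 1.61 ± 0.17 (SE, adjusted p = 3.2e-05), as did the activator subunit Psme1 (0.70 ± 0.12). Of 31 subunits of the constitutive proteasome, 0 rose and 10 fell, led by the ATPase Psmc4, which read 143, 164, 161 and 157 CPM in DTR- and 92.7, 91.3, 116 and 103 CPM in DTR+ and fell by 0.64 ± 0.10 (SE, adjusted p = 0.00062). With library totals 1 of these 31 was lower, and without the 3 muscle-rich libraries 3 were. The number was 16 without DTR- replicate 1. Of class II 6 of 8 genes were higher, including H2-Ab1 (0.79 ± 0.13) and its chaperone Cd74 (0.68 ± 0.14). The class II transactivator Ciita was at 0.59 ± 0.54 and not called.

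**Figure D1:**
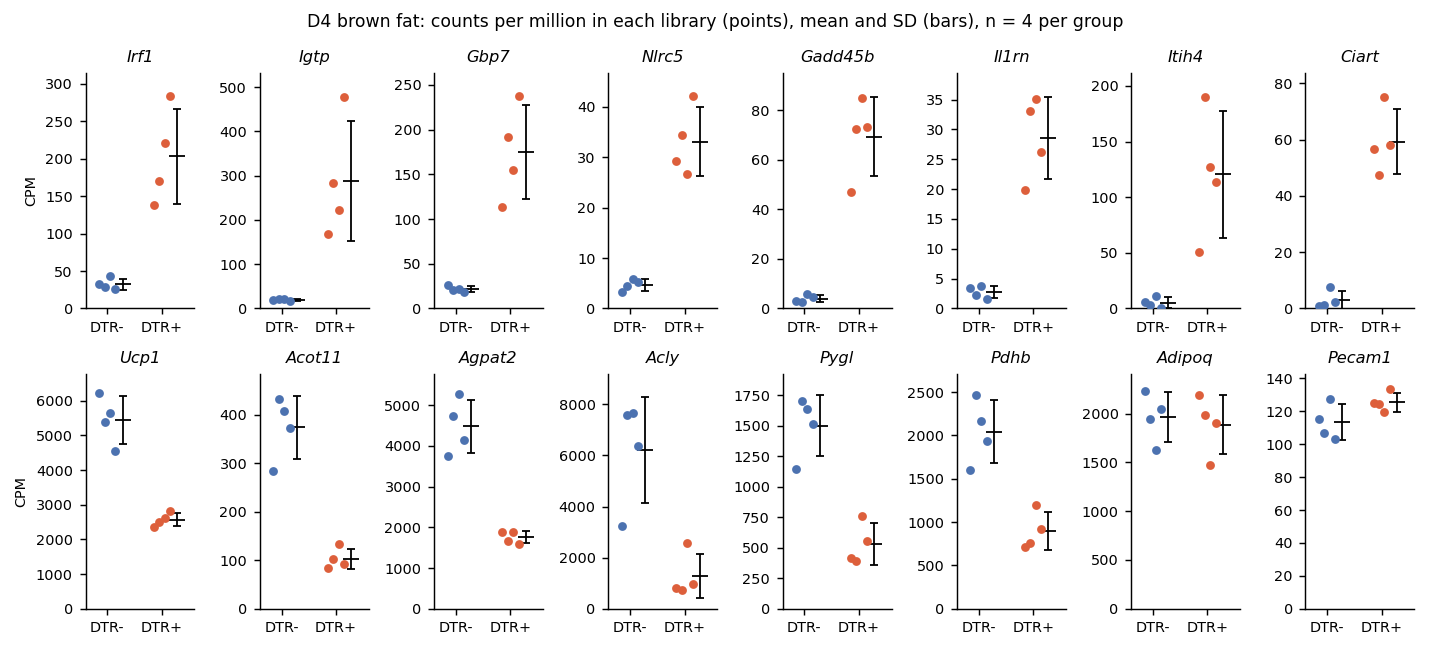
CPM in each of the 8 libraries for 16 genes, with the mean and SD of each group (n = 4). Interferon, stress, acute-phase and clock genes of the upper row are higher in all DTR+ libraries, metabolic genes of the lower row are lower, and Adipoq and Pecam1 overlap.

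Chemokines and cytokine receptors rose with 11 of 16 and 8 of 11 tested genes, and 0 of either list fell. Of the chemokines that rose, 6 entered the test with the help of DTR+ libraries, and 13 of the 29 listed did not enter it. Among the cytokines and receptors that rose, 1 entered with that help. Ccl2, which draws monocytes, read 0.801, 0.984, 4.34 and 0.411 CPM in DTR- and 18.9, 49.0, 107 and 44.1 CPM in DTR+. Cxcl9, which draws T cells through Cxcr3, read 9.45, 5.91, 10.2 and 9.65 CPM in DTR- and 20.7, 35.9, 48.0 and 60.5 CPM in DTR+ and rose by 2.21 ± 0.31 (SE, adjusted p = 0.00066). DTR+ replicate 1 was the lowest DTR+ library for both genes. Cxcl12, the chemokine of stromal cells, was at -0.10 ± 0.12 and not called. Csf1, the growth factor of macrophages, rose by 2.37 ± 0.31 (SE, adjusted p = 0.00017), and Osmr, the receptor of oncostatin M, by 2.15 ± 0.31 (SE, adjusted p = 0.0012). The proinflammatory cytokines themselves stayed near the detection limit, with sums over 4 libraries of 0 counts in DTR- and 27 in DTR+ for Tnf, 14 and 37 for Il1b and 0 and 1 for Il6. Inhibitors of inflammation were higher in 10 of 15 cases, 2 of which entered the test with the help of DTR+ libraries. Il1rn, the antagonist of the interleukin 1 receptor, read 3.36, 2.30, 3.78 and 1.64 CPM in DTR- and 19.9, 33.0, 35.1 and 26.2 CPM in DTR+ and had one of the smallest adjusted p-values of the comparison, with a rise of 3.33 ± 0.27 (SE, adjusted p = 2.6e-06). Socs3, the brake on Stat3, rose by 2.67 ± 0.30 (SE, adjusted p = 3.3e-05), and Nfkbia, the inhibitor of NF-kB, by 1.41 ± 0.12 (SE, adjusted p = 4.3e-06).

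In these bulk libraries fewer cells of a type and less RNA per cell cannot be told apart. Of 26 markers of T and NK cells 9 were tested, 8 of them only with the help of DTR+ libraries. Those 8 were called higher, but the entry to the test favours that direction and their count is not read as a result. The sum over the whole list was at most 23 CPM in a DTR- library and 48.4, 92.8, 127 and 115 CPM in DTR+. Cd8b1, a chain of the CD8 coreceptor, read 0.16, 0.164, 0.28 and 0.205 CPM in DTR- and 1.58, 3.59, 3.93 and 7.69 CPM in DTR+, and the kinase Lck of T cell receptor signalling rose by 3.24 ± 0.50 (SE, adjusted p = 0.0004). Gzma, a granzyme, rose by 3.14 ± 0.51 (SE, adjusted p = 0.00064). Cd8b1, Lck and Gzma are among those 8, so the entry to the test favours their rises as well. For the helper T cell marker Cd4 the counts summed to 22 in DTR- and 32 in DTR+, and for Cd8a to 3 and 37. Of the Treg list only Ikzf2 was tested, and it was at 0.44 ± 0.30. In B cells, the immunoglobulin heavy chain gene Ighm read 12.0, 23.3, 22.4 and 16.6 CPM in DTR- and 5.83, 11.8, 7.66 and 7.44 CPM in DTR+ and fell by 1.18 ± 0.27 (SE, adjusted p = 0.0061), while Cd79a, at 39 counts in DTR- and 32 in DTR+, and Igkc were not called.

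Of 17 tested genes of inflammatory monocytes 16 rose, 10 of which entered the test with the help of DTR+ libraries. Of the 7 that did not need them 6 rose. Examples of all 16 are the surface protein Ly6c2 (3.54 ± 0.55, adjusted p = 0.001) and the Fc receptor Fcgr1 (3.20 ± 0.48). Ly6c2 read 1.28, 0.984, 1.40 and 1.03 CPM in DTR- and 3.31, 11.4, 26.4 and 15.4 CPM in DTR+. It entered the test with the help of DTR+ libraries. Of 16 genes of resident macrophages 3 rose, the complement genes C1qa and C1qb and the receptor Csf1r (0.76 ± 0.20, 1.56 ± 0.22 and 1.08 ± 0.25). The number was 6 with library totals, 1 without DTR- replicate 1 and 6 without DTR- replicate 3. The sum over the resident list was 161 to 256 CPM in DTR- and 317 to 488 CPM in DTR+. Cd163, the haemoglobin scavenger receptor, was the only member that fell, a share of the list below the 7.36% of all genes. It read 6.89, 4.59, 3.50 and 4.31 CPM in DTR- and 2.05, 0.896, 0.935 and 2.05 CPM in DTR+ and fell by 1.71 ± 0.45 (SE, adjusted p = 0.014). The mannose receptor Mrc1, also of resident cells, was at 0.29 ± 0.32. C1qa lost its call without DTR- replicates 1, 2 or 4 or DTR+ replicate 2 (adjusted p from 0.056 to 0.068), and Csf1r and Cd163 lost theirs without DTR- replicate 1. Lipid-associated macrophages were described by a further list. The elastase Mmp12 read 0.16, 0.656, 3.78 and 0.616 CPM in DTR- and 34.4, 101, 70.1 and 46.4 CPM in DTR+ and rose by 5.47 ± 0.75 (SE, adjusted p = 0.0042). Lgals3, a galactose-binding lectin, read 11.2, 15.3, 60.5 and 8.42 CPM in DTR- and 166, 446, 522 and 352 CPM in DTR+, with an adjusted p of 0.021 that was lost without DTR- replicates 1, 2 or 4 or DTR+ replicates 2, 3 or 4 (adjusted p from 0.051 to 0.07). Apoe (0.15 ± 0.13) and Ctsb (0.082 ± 0.09) of this list, which adipocytes also express, were not called. DTR- replicate 3 was the highest DTR- library for Mmp12, Lgals3, Ccl2 and Lyz2 alike, and what sets that library apart was not tested. In all 9 of 15 genes of this list rose, 3 of them with the help of DTR+ libraries at entry, and 1 fell (the lysosomal lipase Lipa). That 1 of 15 is below the share of all genes that fell. The number that rose fell to 5 without DTR- replicate 4 or DTR+ replicates 2, 3 or 4. The sum over this list overlapped between the groups, at 8505 to 9229 CPM in DTR- and 8226 to 10115 CPM in DTR+. Of 14 neutrophil genes 5 were tested, each with the help of DTR+ libraries, so the 4 called higher (S100a8, S100a9, Csf3r and Lcn2), a number that was 2 without DTR- replicate 2, are not read as a result for the list. The sum over the 14 was 5.07 to 14.0 CPM in DTR- and 18.0 to 46.7 CPM in DTR+.

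**Figure D2:**
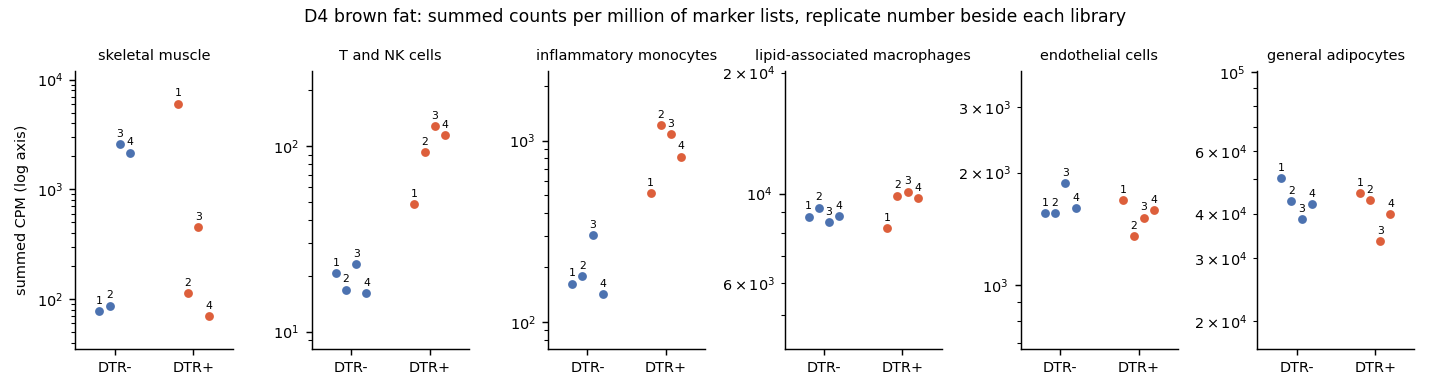
Summed CPM of 6 marker lists in each library on a log axis, with the replicate number beside each point. Muscle sums range from 70.2 to 6034 CPM across both groups. T and NK cell and monocyte sums do not overlap between groups, and lipid-associated macrophage, endothelial and adipocyte sums overlap.

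Of genes of cell division 17 of 27 rose (median 1.45), and 11 without the 3 muscle-rich libraries. Of those that rose 12 entered the test with the help of DTR+ libraries, and of the 11 that did not need them 5 rose. Mki67, the marker of cycling cells, read 3.36, 1.31, 1.82 and 0.616 CPM in DTR- and 5.52, 11.8, 5.79 and 10.3 CPM in DTR+, and rose by 2.19 ± 0.45 (SE, adjusted p = 0.0033). Mki67 was among those that entered with that help. The helicase subunit Mcm6 rose by 1.98 ± 0.34 (SE, adjusted p = 0.0012) and Top2a, which untangles DNA, by 3.08 ± 0.63 (SE, adjusted p = 0.0061). In the same libraries the markers of immune cells above were higher, and their part in this result was not tested.

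Gadd45b (chromosome 10, 80930073 to 80932204), a stress-induced partner of MAP3 kinases, had one of the smallest adjusted p-values, with 2.88, 2.63, 6.02 and 4.52 CPM in DTR- and 46.8, 72.6, 84.9 and 73.1 CPM in DTR+ and a rise of 4.09 ± 0.26 (SE, adjusted p = 2.3e-06). No DTR+ library was below 7 times the highest DTR- library. Of the 15 tested genes of growth arrest and p53 targets 6 rose, including Btg2 (1.72 ± 0.32, adjusted p = 0.0095) and Eda2r, a receptor of the TNF family (2.45 ± 0.51). In 1 of the 6 the entry to the test had the help of DTR+ libraries. Other targets of p53 did not pass, such as Mdm2 (0.18 ± 0.15) and Ccng1 (-0.15 ± 0.10). Of the integrated stress response 7 of 23 genes rose and 2 fell, Atf5 and Psph. Atf3 was among 3 of the 7 that entered the test with the help of DTR+ libraries. Of the 18 that did not need them 4 rose. The transcription factor Atf3 read 4.16, 0.82, 3.64 and 4.93 CPM in DTR- and 15.1, 19.4, 49.7 and 33.3 CPM in DTR+ and rose by 3.12 ± 0.53 (SE, adjusted p = 0.0047). Trib3 (0.019 ± 0.18) and Asns (-0.15 ± 0.11), classical targets of Atf4, were not called. Of 21 genes of protein folding in the endoplasmic reticulum 7 rose (15 with library totals), Sdf2l1 the most (2.18 ± 0.33, adjusted p = 0.00034), while the central chaperone Hspa5 was at 0.16 ± 0.11. Heat shock proteins gave 0 higher and 3 lower of 15 (Hspb8, Hspd1 and Hspa9), and 1 lower with library totals. Cell death effectors rose in 13 of 20 cases, 4 of which entered the test with the help of DTR+ libraries, led by the inflammatory caspase Casp4 (3.27 ± 0.56), the necroptosis pore former Mlkl (1.74 ± 0.36) and the pyroptosis pore former Gsdmd (1.57 ± 0.27). Casp8, the initiator caspase of death receptors, was not called (0.11 ± 0.20).

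Immediate-early genes, which respond within minutes to many stimuli including tissue handling, had 10 of 19 members that rose and 0 that fell, and 5 of the rising ones entered the test with the help of DTR+ libraries. Egr2, which was among them, read 0.801, 0.984, 1.26 and 1.85 CPM in DTR- and 9.30, 9.86, 21.3 and 9.23 CPM in DTR+ and rose by 3.35 ± 0.40 (SE, adjusted p = 5.3e-05). Fos, at 3.50 ± 0.90 (SE, adjusted p = 0.047), lost its call without DTR- replicates 2, 3 or 4 or DTR+ replicates 1, 2 or 3 (adjusted p from 0.07 to 0.12). The count of 10 fell to 6 without DTR- replicate 4 or DTR+ replicate 3 and to 7 without the 3 muscle-rich libraries.

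Acute-phase and complement genes were higher in 11 of 18 cases, 3 of which entered the test with the help of DTR+ libraries. Hp, the haptoglobin that binds free haemoglobin and that fat secretes, read 2488, 1746, 1786 and 1569 CPM in DTR- and 4146, 6042, 10568 and 7460.2 CPM in DTR+, and rose by 1.89 ± 0.32 (SE, adjusted p = 0.01). Lrg1, a secreted glycoprotein, read 326, 243, 187 and 265 CPM in DTR- and 548, 642, 901 and 764 CPM in DTR+ and rose by 1.48 ± 0.19 (SE, adjusted p = 0.00088). Itih4, which belongs to the inter-alpha-trypsin inhibitors, rose by 4.48 ± 0.84 (SE, adjusted p = 0.016), from 6.09, 2.95, 11.5 and 0 CPM in DTR- and 50.8, 189.9, 127 and 114 CPM in DTR+. Itih4 lost its call without DTR- replicate 2 (adjusted p = 0.057) and the list's count fell to 7 without the same library and without the 3 muscle-rich ones. Orm1 was the only member that fell (-0.56 ± 0.14), a share of the list below that of all genes that fell.

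Of 19 tested genes of the circadian clock 7 rose and 0 fell, and 1 of the 7 entered the test with the help of DTR+ libraries. Ciart, a repressor of the clock (chromosome 3, 95878503 to 95882251), read 0.961, 1.15, 7.71 and 2.46 CPM in DTR- and 56.6, 47.4, 75.1 and 58.0 CPM in DTR+ and rose by 4.21 ± 0.58 (SE, adjusted p = 0.0034). Nr1d1, the haem-binding repressor of Arntl, read 147, 114, 151 and 142 CPM in DTR- and 277, 341, 408 and 274 CPM in DTR+, with a rise of 1.23 ± 0.13 (SE, adjusted p = 3.3e-05). Dbp, a factor driven by the clock, rose by 1.85 ± 0.28 (SE, adjusted p = 0.00029), and the repressors Nfil3 and Bhlhe41 by 2.09 ± 0.34 and 1.72 ± 0.22. Hlf and Nr1d2 were the remaining called members (0.90 ± 0.20 and 0.74 ± 0.15). The activators Arntl and Clock were at 0.18 ± 0.21 and -0.033 ± 0.16. The libraries of the groups did not overlap for Ciart, Nr1d1 or Dbp. Since the labels give no collection time, time of day and genotype cannot be told apart for these genes.

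**Figure D3:**
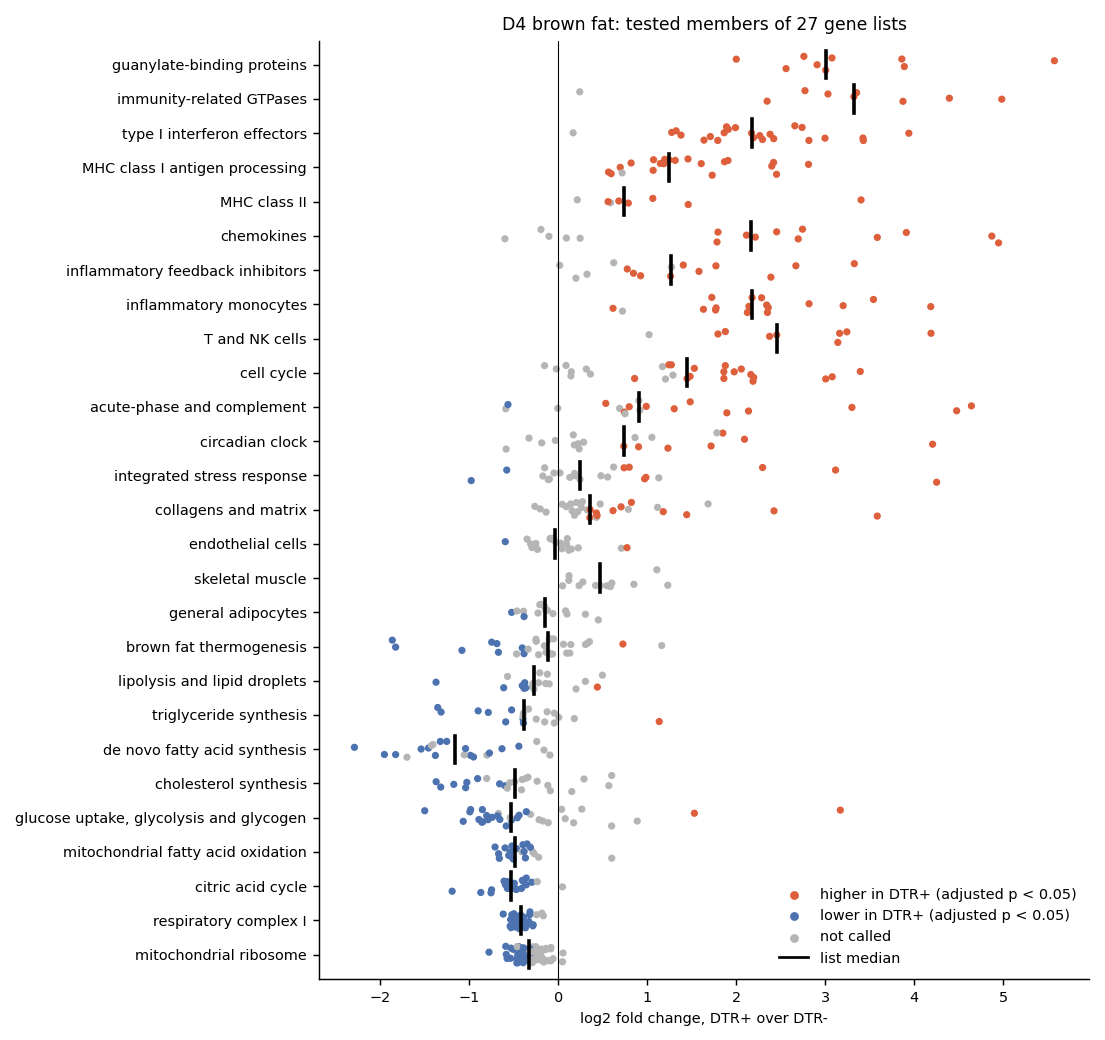
Log2 fold changes of the tested members of 27 gene lists (x axis, DTR+ over DTR-), each point a gene and each bar the list median. Immune and interferon lists lie to the right, with a median of 3.01 for guanylate-binding proteins, and lists of lipid synthesis, glycolysis and mitochondria to the left, with a median of -1.15 for de novo fatty acid synthesis.

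Thermogenic genes fell in part and not as a block. Of 30 tested genes 8 fell and 1 rose, beside 7.36% and 8.73% of all genes. The number that fell was 8 to 9 with single libraries left out, 8 without the 3 muscle-rich libraries and 6 with library totals. The median was -0.12 and turned positive with library totals (0.12). The sum over the list was 17830 to 20943 CPM in DTR- and 12046 to 14159 CPM in DTR+. Ucp1 fell by 1.08 ± 0.091 (SE, adjusted p = 3.2e-06) and no DTR+ library exceeded 2827 CPM. Acot11, a thioesterase of brown fat, read 284, 433, 407 and 373 CPM in DTR- and 84.4, 102, 133 and 92.3 CPM in DTR+ and fell by 1.86 ± 0.16 (SE, adjusted p = 9e-06). Elovl3, which elongates fatty acids in cold-exposed brown fat, read 77.8, 105, 128 and 99.2 CPM in DTR- and 40.8, 29.0, 24.3 and 20.8 CPM in DTR+ and fell by 1.83 ± 0.21 (SE, adjusted p = 0.00013). Letmd1, a mitochondrial protein needed for uncoupled respiration, fell by 0.69 ± 0.085 (SE, adjusted p = 6.4e-05), and the other called members were Otop1, S100b, Cidea and Cox7a1. The deiodinase Dio2 (0.13 ± 0.66), the identity factor Prdm16 (-0.34 ± 0.19) and Ebf2 (0.10 ± 0.15) were not called. Ppargc1a, the coactivator of mitochondrial genes, was the member that rose (0.73 ± 0.19, adjusted p = 0.021). It lost its call without DTR- replicates 1 or 2 or DTR+ replicates 1 or 3 (adjusted p from 0.05 to 0.087).

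For signals upstream of thermogenesis and for adipocyte transcription factors, the shares called were near or below those of all genes (8.73% rose and 7.36% fell). Of 29 genes of adrenergic and cAMP signalling 3 rose, the phosphodiesterase Pde4b (1.05 ± 0.22), the niacin receptor Hcar2 (0.70 ± 0.17) and the inhibitory G protein Gnai2 (0.59 ± 0.14). With library totals 5 rose, and 1 did without the 3 muscle-rich libraries. The prostaglandin receptor Ptger3 fell (-1.23 ± 0.31) and lost its call without DTR- replicates 2, 3 or 4 or DTR+ replicates 1 or 2 (adjusted p from 0.054 to 0.094). The beta-3 receptor Adrb3 read 312, 372, 336 and 244 CPM in DTR- and 159, 251, 324 and 183 CPM in DTR+, with overlapping groups. Of 19 adipocyte transcription factors 1 rose, the corepressor Tle3, and 1 fell, the carbohydrate-responsive Mlxipl (-0.77 ± 0.20), while Pparg (0.083 ± 0.14), the master regulator of adipocytes, and Srebf1 (-0.16 ± 0.14), of lipogenesis, were not called. Tle3 lost its call without DTR- replicates 1 or 4 or DTR+ replicates 3 or 4 (adjusted p from 0.061 to 0.083), and Mlxipl without DTR- replicates 2 or 4 or DTR+ replicate 4 (adjusted p from 0.054 to 0.056).

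De novo fatty acid synthesis had the lowest median of all lists (-1.15), with 14 of 22 genes lower and 0 higher. Acly, which makes acetyl-CoA from citrate, read 3253, 7596, 7673 and 6352 CPM in DTR- and 796, 743, 2568 and 982 CPM in DTR+. Fasn, the fatty acid synthase, read 9149, 16956, 17108 and 14619.8 CPM in DTR- and 3969, 3195, 8075 and 4650.0 CPM in DTR+. DTR+ replicate 3 was the highest DTR+ library and DTR- replicate 1 the lowest DTR- library for both, and the groups did not overlap. Acly fell by 2.29 ± 0.54 (SE, adjusted p = 0.036) and lost its call without DTR- replicates 2, 3 or 4 or DTR+ replicates 1, 2 or 4 (adjusted p from 0.074 to 0.1), and Fasn fell by 1.54 ± 0.36 (SE, adjusted p = 0.035) and lost its call without DTR- replicates 2, 3 or 4 or DTR+ replicates 1, 2 or 4 (adjusted p from 0.074 to 0.096). Tkt, the transketolase of the pentose phosphate path that supplies NADPH, fell by 1.32 ± 0.22 (SE, adjusted p = 0.006) and kept its call without any single library. Scd1, the desaturase that makes oleate, read 26284, 48194, 48474 and 40108 CPM in DTR- and 16991, 15009, 29009 and 17421 CPM in DTR+ and was not called (-1.06 ± 0.29, adjusted p = 0.061). The number of lower genes was as low as 9 when DTR- replicates 2 or 4 or DTR+ replicate 4 were left out in turn, and 6 without the 3 muscle-rich libraries. Of 23 genes of cholesterol synthesis 8 fell, among them Nsdhl (-1.37 ± 0.23, adjusted p = 0.0028) and Hmgcs1 (-0.66 ± 0.15). Fewer cholesterol genes were called without DTR- replicates 2 or 3 or DTR+ replicates 1, 2 or 4 (3 at the least), and 3 were with library totals (with 3 higher) and 2 without the 3 muscle-rich ones.

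Triglyceride synthesis had 8 of 19 genes lower and 1 higher, and 4 lower with library totals. Agpat2 (chromosome 2, 26593057 to 26604417), which makes phosphatidic acid and whose loss causes lipodystrophy, read 3756, 4733, 5265 and 4153 CPM in DTR- and 1874, 1670.0, 1878 and 1585 CPM in DTR+ and fell by 1.35 ± 0.10 (SE, adjusted p = 2.3e-06). Gpd1, which supplies glycerol 3-phosphate, read 7415, 8293, 8014 and 7402 CPM in DTR- and 4224, 3438, 4512 and 4512 CPM in DTR+ and fell by 0.90 ± 0.086 (SE, adjusted p = 7.8e-06). Acsl5, an acyl-CoA synthetase, fell by 1.32 ± 0.12 (SE, adjusted p = 7.8e-06). In all 3 genes the DTR+ libraries lay under every DTR- library. Dgat2, which makes the final ester bond, read 5981, 3736, 3567 and 4324 CPM in DTR- and 4605, 3158, 2259 and 3410.4 CPM in DTR+ and was not called. The member that rose was the minor isoform Agpat4 (1.14 ± 0.38, adjusted p = 0.049), and it lost its call without DTR- replicates 1, 2, 3 or 4 or DTR+ replicates 3 or 4 (adjusted p from 0.051 to 0.17). Agpat4 entered the test with the help of DTR+ libraries. Of 19 genes of lipolysis and lipid droplets 6 fell, among them Lipe, the hormone-sensitive lipase (-0.38 ± 0.084), and Mgll (-0.61 ± 0.11), and Plin4 rose (0.44 ± 0.11). With library totals 2 genes of lipolysis fell. Pnpla2, the first lipase of the path, was at -0.14 ± 0.082. Of 16 genes of lipid uptake 3 rose (Angptl4, Lrp1 and Scarb1) and 1 fell (Vldlr), with the lipoprotein lipase Lpl at 0.10 ± 0.23 and the carrier Cd36 at -0.23 ± 0.078, both uncalled. The 1 of 16 that fell is below the share of all genes that fell. Without the 3 muscle-rich libraries 1 of the uptake genes rose.

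Glucose handling fell in 18 of 32 genes. Slc2a4, the insulin-responsive glucose transporter, read 474, 641, 631 and 617 CPM in DTR- and 344, 288, 364 and 317 CPM in DTR+ and fell by 0.85 ± 0.11 (SE, adjusted p = 8.4e-05). Pygl, which frees glucose from glycogen, read 1146, 1704, 1636 and 1518 CPM in DTR- and 416, 392, 759.8 and 556 CPM in DTR+ and fell (adjusted p = 0.0049). Aldoa and Gapdh of glycolysis fell by 0.86 ± 0.15 (SE, adjusted p = 0.0035) and 0.89 ± 0.15 (SE, adjusted p = 0.0027). Hk3, the hexokinase of leukocytes, and Irs2, an insulin receptor substrate, rose (3.17 ± 0.69 and 1.53 ± 0.35). These 2 of 32 are below the share of all genes that rose (8.73%). The filter let 1 of them enter with the help of DTR+ libraries. Hk3 lost its call without DTR- replicates 1 or 2 (adjusted p from 0.06 to 0.065), and Irs2 without DTR- replicates 1 or 4 or DTR+ replicates 3 or 4 (adjusted p from 0.051 to 0.061).

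Lists of mitochondrial genes had many members that fell by small amounts. Pdhb, a subunit of pyruvate dehydrogenase, read 1605, 2471, 2167 and 1937 CPM in DTR- and 709, 762, 1193 and 917 CPM in DTR+ and fell by 1.19 ± 0.19 (SE, adjusted p = 0.0029), and its partners Dlat and Pdha1 fell by 0.87 ± 0.10 (SE, adjusted p = 3.7e-05) and 0.75 ± 0.10 (SE, adjusted p = 0.0001). Of the citric acid cycle 21 of 23 genes fell (median -0.53), and Idh2 (0.048 ± 0.10) and Suclg2 (-0.24 ± 0.092) were not called. Of complex I 33 of 36 nuclear-encoded subunits fell, with a median of -0.42. Ndufs1, its largest subunit, read 1224, 1351, 1169 and 1249 CPM in DTR- and 771, 843, 848 and 791 CPM in DTR+ and fell by 0.62 ± 0.079 (SE, adjusted p = 8.8e-05). Complex II fell in 4 of 4, complex III in 9 of 9, complex IV in 9 of 13 and ATP synthase in 13 of 18 cases. Atpif1, the inhibitor of ATP synthase, rose (0.82 ± 0.21) and lost its call without DTR+ replicate 4. Transcripts of the mitochondrial genome fell in 6 of 13 cases. mt-Nd1 read 45679.8, 55699, 47956 and 54793 CPM in DTR- and 34466, 26269.8, 36224 and 29727 CPM in DTR+, and mt-Co1, at -0.028 ± 0.085, did not pass. Mitochondrial ribosomal proteins fell in 36 of 77 cases and rose in 0.

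The counts of these small falls rest on the scaling. With library totals, under which the median of all genes is 0.27, 6 of 36 complex I genes, 15 of 23 citric acid cycle genes, 1 of 18 ATP synthase genes and 2 of 77 mitochondrial ribosomal genes were lower. The counts for complexes II, III and IV were 2, 3 and 1, and 2 of 13 transcripts of the mitochondrial genome were lower. The complex I median was -0.17 there, which is -0.44 relative to all genes. Reads of all genes on the mitochondrial genome were 14.2 to 16.0% of counts in DTR- and 12.4 to 14.5% in DTR+. Without the 3 muscle-rich libraries 17 of the mitochondrial ribosomal genes and 7 of the ATP synthase genes were lower, and 5 of complex III. Without DTR+ replicate 3 the ATP synthase count was 8.

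Oxidation of fatty acids in mitochondria fell in 17 of 22 genes, and 9 with library totals. Cpt2, which completes the carnitine shuttle, read 1067, 995, 905 and 843 CPM in DTR- and 589, 592, 577 and 572 CPM in DTR+, so that the DTR+ libraries spanned a narrow band under all DTR- libraries, and fell by 0.71 ± 0.087 (SE, adjusted p = 6.1e-05). The beta-oxidation subunit Hadha fell by 0.66 ± 0.076 (SE, adjusted p = 3.7e-05). Peroxisomal genes fell in 12 of 25 cases (5 with library totals), among them the hydrogen peroxide scavenger Cat (-0.52 ± 0.083, adjusted p = 0.00055) and the fatty acid transporter Abcd3 (-0.88 ± 0.086, adjusted p = 7.8e-06). Breakdown of branched-chain amino acids, a fuel of brown fat, fell in 13 of 21 genes and in 1 with library totals. Of the creatine cycle 0 of 6 genes were called by edgeR and 0 by DESeq2, with 2 at an unadjusted p under 0.05, and Ckb was at -0.055 ± 0.23. Among antioxidant genes 4 of 22 rose and 8 fell. The number that rose was 1 or 2 without DTR- replicates 2 or 4 or DTR+ replicates 2 or 4, and 4 fell with library totals.

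Secreted products of fat did not move together. Adipoq, the adiponectin gene, read 2236, 1948, 1631 and 2051 CPM in DTR- and 2193, 1983, 1469 and 1905 CPM in DTR+ and was not called, and Lep was at -0.19 ± 0.44. Nrg4, a growth factor that brown fat sends to liver and nerve, fell by 0.53 ± 0.10 (SE, adjusted p = 0.0026), and Rbp4, the retinol carrier, by 1.05 ± 0.22 (SE, adjusted p = 0.011). Angptl8, a regulator of lipoprotein lipase, read 53.5, 54.5, 53.1 and 63.3 CPM in DTR- and 91.6, 72.9, 92.3 and 90.5 CPM in DTR+ and rose by 0.63 ± 0.12 (SE, adjusted p = 0.0015). Gdf15, a stress hormone, read 0, 0.328, 0.42 and 0 CPM in DTR- and 2.37, 3.74, 7.29 and 3.59 CPM in DTR+ and rose by 4.25 ± 0.71 (SE, adjusted p = 0.00074). It entered the test with the help of DTR+ libraries. The other called members were Angptl4 (0.34 ± 0.083) and Igf1 (0.64 ± 0.18), of which Igf1 lost its call without DTR- replicates 1, 3 or 4 or DTR+ replicate 2 (adjusted p from 0.073 to 0.092).

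Of 20 endothelial genes 1 fell, the VEGF receptor Kdr (-0.59 ± 0.12, adjusted p = 0.0031), and 1 rose, Vwf (0.77 ± 0.25, adjusted p = 0.047). Vwf lost its call without DTR- replicates 1, 2 or 3 or DTR+ replicates 1 or 4 (adjusted p from 0.072 to 0.15). Pecam1, the general endothelial marker, was at 0.15 ± 0.10. The endothelial counts were below the shares of all genes that fell and rose (7.36% and 8.73%). Fibroblast genes rose in 5 of 16 cases, 1 of which entered the test with the help of DTR+ libraries. They were Ly6a, Thy1, Lum, Cd34 and Col3a1. Ly6a, which interferon also induces, rose by 1.37 ± 0.14 (SE, adjusted p = 3.2e-05). Without DTR- replicates 2, 3 or 4 or DTR+ replicates 2 or 4 the count was 2 to 3, without the 3 muscle-rich libraries 2, and with library totals 9. Other fibroblast markers such as Pdgfra (0.10 ± 0.25) and Dpt (0.035 ± 0.19) were not called. Matrix genes rose in 11 of 29 cases, 2 of which entered the test with the help of DTR+ libraries. Timp1, the inhibitor of matrix proteases, read 1.60, 0.82, 1.12 and 1.03 CPM in DTR- and 4.42, 15.2, 24.1 and 12.3 CPM in DTR+ and rose by 3.58 ± 0.48 (SE, adjusted p = 0.00017), and Col6a1 rose by 0.82 ± 0.11. Timp1 was among those that entered with that help. The matrix count was as low as 4 when DTR- replicates 2 or 4 or DTR+ replicate 4 were left out in turn, 6 without the 3 muscle-rich libraries and 17 with library totals. Of 15 genes of adipocytes in general 13 were not called and 2 fell, Lipe and Acsl1. Red cell genes fell in 2 of 5 cases (Hba-a2 and Hbb-bt). Genes of mural cells and of white adipocytes gave 0 calls of 8 and of 6 with edgeR and 0 at an unadjusted p under 0.05. Cytosolic ribosomal proteins rose in 15 of 78 cases, in 66 with library totals and in 1 without the 3 muscle-rich libraries. With single libraries left out the count ran from 3 to 20, and it fell by over 1.5 times when any library other than DTR+ replicate 1 was left out.

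Among the largest falls outside these lists were Aatk, a kinase best known from neurons, which read 56.4, 67.1, 68.4 and 57.5 CPM in DTR- and 20.7, 21.4, 18.1 and 17.7 CPM in DTR+ and fell by 1.67 ± 0.14 (SE, adjusted p = 2.6e-06), and Gldn, a protein of the node of Ranvier (-2.07 ± 0.50, adjusted p = 0.0097). Icosl, the ligand of the T cell costimulator Icos, was among the largest rises (4.12 ± 0.50, adjusted p = 6.1e-05).

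The same genotype contrast in BAT of the D3 groups (DTR+ and DTR-, 3 libraries each, both given DT, with PBS in the title) gave 461 called genes of 12757 (3.61%), 237 higher and 224 lower. In that joint fit 382 genes were called in both contrasts, all 382 with the same sign, which is 82.9% of the D3 calls and 18.3% of the D4 calls. A direct test of the difference between the effects called 0 genes (0%) with edgeR, with 732 at an unadjusted p under 0.05, a smallest adjusted p of 0.14 and 4 genes called by DESeq2. Igtp rose by 1.81 ± 0.30 (adjusted p = 0.0086) in D3 and by 3.87 in D4, a difference of 2.05 ± 0.39 (SE, adjusted p = 0.49). Ucp1 was at -0.87 ± 0.18 (adjusted p = 0.025) and -1.09. Ciart rose by 3.78 ± 0.53 (adjusted p = 0.0042) in D3 and 7 clock genes were called there too. For single lists the D3 and D4 medians were 1.81 and 3.04 for guanylate-binding proteins, 0.47 and 0.41 for dendritic cells, and -1.01 and -1.16 for fatty acid synthesis. The D3 groups had 3 libraries each, which limits what this test can detect.

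Subcutaneous fat (SAT) of the D4 groups, with 4 libraries per genotype and the same toxin, had 33 called genes of 13502 (0.244%), 28 higher and 5 lower. The effects in BAT and SAT differed in 555 genes (4.11%), 413 with the BAT effect above the SAT effect and 142 below. Gadd45b was at 4.06 in BAT and 0.31 in SAT, a difference of 3.75 ± 0.50 (SE, adjusted p = 0.0011). Irf7 differed by 2.42 ± 0.32 (SE, adjusted p = 0.0011) and Gbp7, which rose in both depots, by 1.39 ± 0.25 (SE, adjusted p = 0.0052). Mmp12 differed by 5.73 ± 1.12 (SE, adjusted p = 0.015), Osmr by 2.19 ± 0.33 (SE, adjusted p = 0.0016) and Lrg1 by 1.55 ± 0.23 (SE, adjusted p = 0.0016). The muscle list had a median of 2.56 in the SAT contrast and 0.44 in BAT. In SAT 0 of its 14 genes were called by edgeR, with 0 at an unadjusted p under 0.05, and the part of muscle RNA in these differences was not tested. Genes of B and plasma cells had medians of -2.42 in SAT and -0.07 in BAT. In SAT 1 of these 6 was called lower by edgeR and 5 were at an unadjusted p under 0.05. The interaction test called 0 of them, and the part of these cells was not tested either. Of the genes that fell in BAT, Acsl5 was at 0.076 in SAT, a difference of -1.43 ± 0.19 (SE, adjusted p = 0.00068), and Aatk differed by -1.44 ± 0.19 (SE, adjusted p = 0.00068). Cat differed by -0.70 ± 0.14 (SE, adjusted p = 0.008), which was not called with library totals (adjusted p = 0.055). Agpat2 differed by -1.05 ± 0.26 (SE, adjusted p = 0.032) and Cd163 by -1.84 ± 0.44 (SE, adjusted p = 0.024). The difference for Agpat2 was not called with library totals either (adjusted p = 0.077). The differences for Agpat2 and Cd163 lost the call without 10 and 4 of 16 single libraries (adjusted p up to 0.079 and 0.071). Acly (-2.32 and -0.50) and Fasn (-1.57 and -0.22) were not shown to differ between depots (adjusted p = 0.27 and 0.15). By list, the BAT effect was above the SAT effect in 16 of 27 type I interferon effectors and 11 of 20 monocyte genes, and below it in 4 of 36 complex I genes.

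PC61, an antibody against CD25, was given to C57BL/6J wild-type males of the same age and set against an isotype antibody, with 3 BAT libraries each. That contrast had 68 called genes of 12842 (0.530%), 19 higher and 49 lower. The D4 effect differed from the PC61 effect in 122 genes (0.950%), 103 above and 19 below. Nlrc5 was at 0.078 with PC61, a difference of 2.75 ± 0.33 (SE, adjusted p = 0.00038). Igtp differed by 3.65 ± 0.46 (SE, adjusted p = 0.0038), Nfkbia by 1.40 ± 0.21 (SE, adjusted p = 0.0023), Zbp1 by 4.05 ± 0.79 (SE, adjusted p = 0.022) and Gadd45b by 3.65 ± 0.68 (SE, adjusted p = 0.013). Zbp1 lost this call without isotype replicates 1 or 2 or PC61 replicate 1 (adjusted p up to 0.10), and Gadd45b without isotype replicate 3 (0.11). Agpat2 fell with PC61 as well (log2 fold change -0.91 ± 0.12 (adjusted p = 0.0016)), and so did Acot11 (-1.02 ± 0.18 (adjusted p = 0.017)). The muscle list had a median of 2.16 in that contrast, with 0 genes called by edgeR and 0 at an unadjusted p under 0.05, and its part was not tested. Neither Agpat2 nor Acot11 was shown to differ from its D4 effect (adjusted p = 0.19 and 0.11). Ucp1 was at -0.90 ± 0.23 (adjusted p = 0.13) with PC61. Strain, agent and experiment differ along with the means of removing Treg cells and cannot be told apart.

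**Figure D4:**
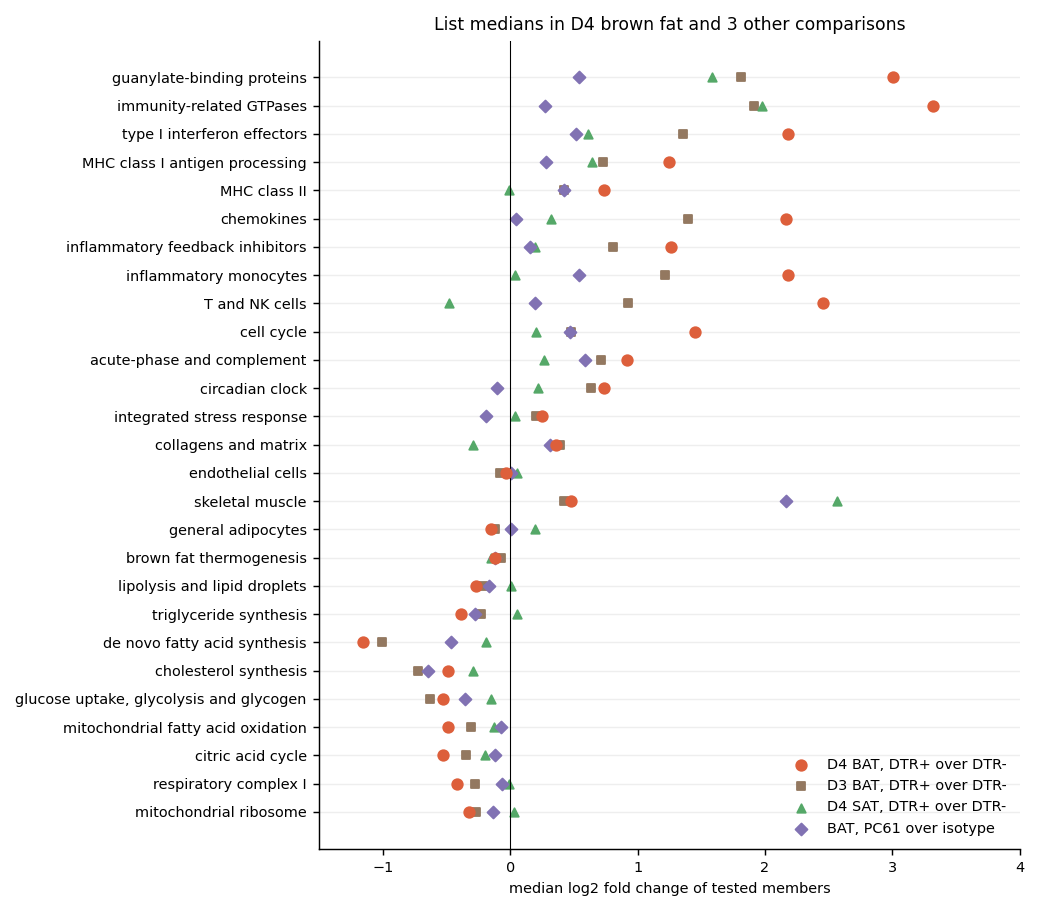
Median log2 fold change of 27 gene lists in D4 BAT and in 3 other contrasts. The guanylate-binding proteins lie at 3.01 in D4 BAT, 1.81 in D3 BAT and 1.58 in D4 SAT, de novo fatty acid synthesis lies at -1.15 and -1.01 in D4 and D3 BAT, and the muscle list is farthest right in D4 SAT and PC61.

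Levels over all 38 whole BAT libraries, normalized together in 12 groups, place the D4 groups as a description. Ucp1 was lowest in D4 DTR+ (2326, 2453, 2527 and 2762 CPM), below D3 DTR+ (6026, 3523 and 5459.9), and the D4 DTR- libraries (6350.0, 5503, 5599 and 4573) were themselves below those of D3 DTR- (9680.0, 10764 and 7520.0). Igtp in D4 DTR+ (164, 278, 216 and 467) overlapped DTR+ mice whose treatment is labelled DT, CL (374, 174 and 178). In DTR+ mice given an antibody to interferon gamma it was 24.3, 22.3 and 22.5, against 128, 99.6 and 90.1 with isotype. One DTR- library of another experiment, labelled DT, PBS, stood apart at 1150 CPM beside 35.0 and 27.4 in its group. Ciart in D4 DTR+ (55.5, 46.6, 72.9 and 56.6) overlapped D3 DTR+ (73.3, 62.4 and 47.4) and the group given antibody to interferon gamma (67.1, 44.0 and 55.3).

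**Figure D5:**
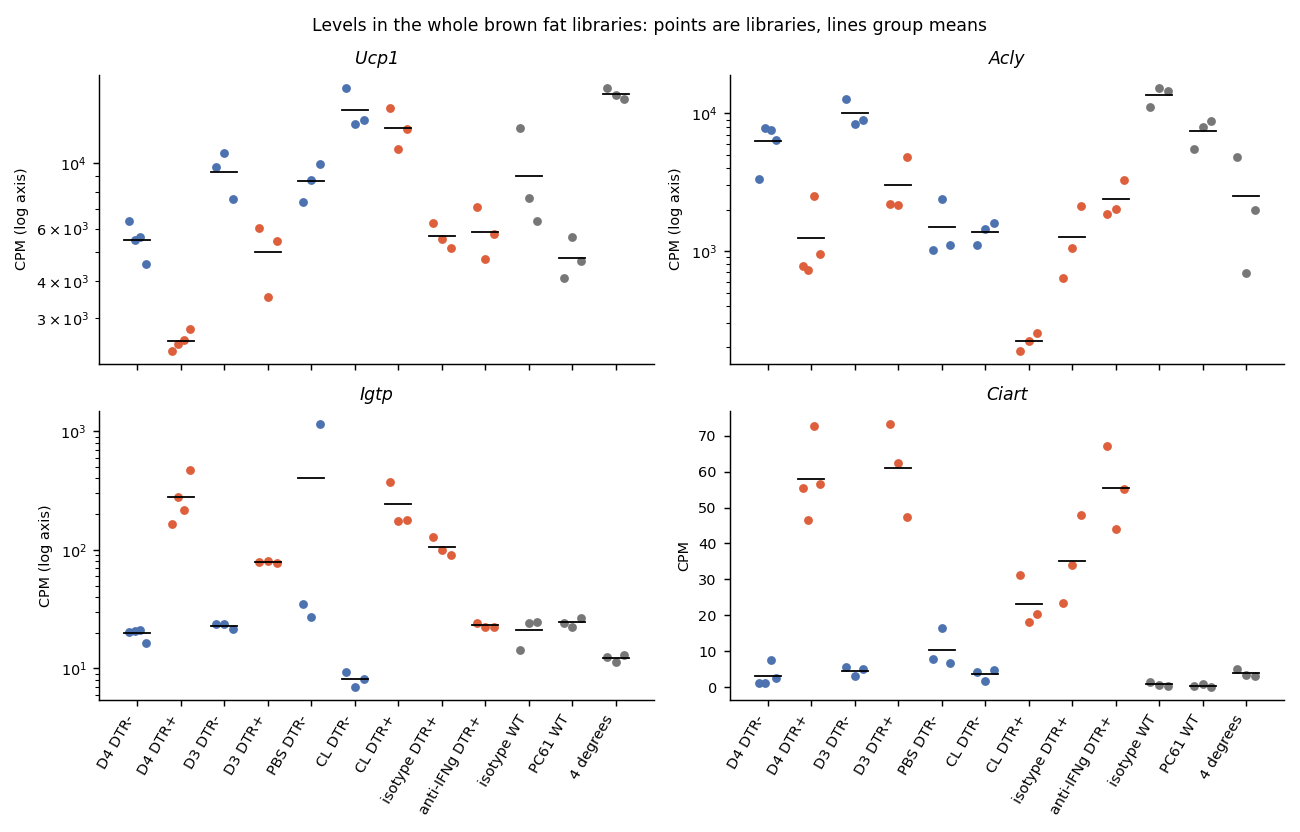
CPM of Ucp1, Acly and Igtp (log axes) and Ciart (linear axis) in the 38 whole BAT libraries of 12 groups, points being libraries and lines group means. Ucp1 is lowest in D4 DTR+, and the Igtp of 1 DTR- library labelled DT, PBS stands at 1150 CPM.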

How the data were processed

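RNA of whole tissue (2 ng per library) was made into cDNA with oligo(dT) by Smart-seq2 and into libraries with Nextera XT, per the labels' protocols. The authors deposited a table of read counts for 55011 gene symbols in 60 libraries, made with STAR 2.7.3a and featureCounts on mm10 per the submitters' processing notes. The sources used here do not give the annotation, the strand setting or the treatment of multiply mapped reads, so overlapping and near-identical genes are uncertain.

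The 8 D4 BAT libraries were fitted alone with edgeR 4.0.16 (R 4.3.3, filterByExpr, TMM factors, robust quasi-likelihood test, Benjamini-Hochberg adjustment over all genes tested, threshold 0.05). Effects in D3 BAT, D4 SAT and PC61 BAT were compared with the D4 BAT effect by an interaction contrast, each in a joint fit of 4 groups. DESeq2 1.42.0 and other settings served as alternatives. CPM are the counts divided by the TMM-scaled library size, as edgeR gives them. Replicates of a group differed beyond sampling noise, with chi-square per degree of freedom of 7.74 to 22.3. Correlations of deviations between DTR- and DTR+ libraries of equal replicate number were -0.40, 0.31, 0.21 and -0.36. The highest of any 2 libraries, 0.52, joined DTR- replicate 4 and DTR+ replicate 1, both rich in muscle RNA. With muscle RNA in these correlations, the check cannot decide whether equal numbers pair libraries.

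The libraries of this comparison and the 67 gene lists (1395 genes, 1195 tested, 7 older symbols replaced by those of the table) were chosen with earlier results of these data known. Genes are named from 4 sources: 7 genes set for the comparison, the 15 largest rises and falls with at least 5 CPM and no overlap, list members by p or by level, and the 8 largest differences each way in a joint fit. Named after their values were seen were Arntl, Asns, Casp8, Cd36, Ciita, Clock, Dio2, Dpt, Ebf2, Fos, Idh2, Irgq, Isg20, Jak1, Mdm2, Mrc1, Pdgfra, Pdhb, Pecam1, Prdm16, Psmb8, Psme1, Suclg2, Top2a and Trib3. A few genes that these rules name are not reported here. Gene positions are those of GENCODE M21 on mm10. On counts simulated for the 11695 genes of D4 BAT, the test recovered 43% of genes changed by 1 and 82% of genes changed by 2 on the log2 scale, with 4.58% of calls false. The simulation changed fewer genes than were called in the data, as many up as down. It therefore does not speak to the effect of the scaling on the calls.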

Additional observations from a re-analysis of the deposited data

Results flagged for a closer look

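In 31 of 398 groups of 4 libraries examined for the 199 genes named, 1 library stood apart from the other 3 by Dixon's criterion, which chance meets in about 1 of 20 groups. DTR- replicate 3 was such a library, above its group, for 11 genes, most of them immune. Its values were 1.40 CPM for Oas3, 11.9 for Irf8, 29.8 for Iigp1, 61.1 for Psmb8, 4.34 for Ccl2 and 18.6 for Osmr, and 30.7 for C1qa, 3.78 for Mmp12, 60.5 for Lgals3, 194 for Lyz2 and 59.7 for Dio2. The same library had 2579 CPM of skeletal muscle RNA, but DTR- replicate 4 had 2159 CPM as well. What sets replicate 3 apart was not tested.

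DTR- replicate 1 stood below its group in metabolic genes, with 439 CPM for Acsl5, 474 for Slc2a4 and 1874 for Pdha1, and also for Zbp1 at 0.801, while Hbb-bt was at 55.9 CPM there. DTR- replicate 2 stood apart at 6.56 CPM for Usp18 and 96.8 for S100b. DTR- replicate 4 did so at 1.44 CPM for Socs1, 122 for Psme1 and 63.3 for Angptl8. Among DTR+ libraries, replicate 1 stood apart at 142 CPM for Ifitm3, 109 for Stat3 and 5.52 for Hk3, and replicate 2 at 146 for C1qb, 2527 for Cd36 and 72.9 for Angptl8. DTR+ replicate 3 did so at 34.4 CPM for Csf1, 58.1 for Hspb8, 21.3 for Egr2 and 2568 for Acly.

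The effect in D4 BAT differed from that in D4 SAT by the interaction test, on the log2 scale, by 3.75 for Gadd45b, 2.42 for Irf7, 1.39 for Gbp7, 5.73 for Mmp12, 1.55 for Lrg1 and 2.19 for Osmr. It differed by -1.84 for Cd163, -1.43 for Acsl5, -1.05 for Agpat2, -0.70 for Cat and -1.44 for Aatk. From the PC61 effect it differed by 3.65 for Gadd45b, 2.75 for Nlrc5, 3.65 for Igtp, 4.05 for Zbp1 and 1.40 for Nfkbia.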

How the results depend on the processing

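No called gene named in the report changed sign under any alternative run. These runs reuse libraries by which the genes were called, so a kept sign is no independent check. Scaling by library totals moved the counts most, to 2280 genes higher and 239 lower, and 534 genes were lower without the 3 muscle-rich libraries. With the summed muscle CPM as a term, also an alternative chosen after seeing the data, the counts were 1010 higher and 885 lower. With single libraries left out 718 to 1079 genes were higher, 643 to 907 lower, and 468 to 556 list members called, against 571 with all 8. Of the 156 genes named as called, 121 kept the call without any single library, 16 lost it in 1 to 3 cases and 19 in 4 to 8. Beside those given in the report, Socs1 was uncalled without DTR- replicate 2 and without DTR+ replicate 4, the call was lost for Lyz2 and Csf3r without DTR- replicate 2, Lipa without DTR+ replicate 4, Lcn2 without DTR- replicates 1 or 2, Cd34 without DTR- replicates 2 or 4, and Vldlr without DTR+ replicates 3 or 4. Atf5 and Psph lost it without DTR- replicate 2 or DTR+ replicates 2 or 4, and S100a9, Scarb1, Thy1, Col3a1, Acsl1, Hba-a2 and Hbb-bt in 4 to 7 cases each. Of genes named as not called, Cox8b and Dio2 were called without DTR- replicate 3, Adrb3 without DTR+ replicate 3, Scd1 without DTR- replicate 1 or DTR+ replicate 3, and Cd36 without DTR- replicate 4 or DTR+ replicate 2. DESeq2 ended none of the 156 calls.

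The replicate block gave 1005 genes higher and 912 lower, and 590 list members called, and ended the calls of Btg2, Fos, Hp, Itih4, Fasn and Agpat4 (adjusted p from 0.059 to 0.14). Whether the numbers pair the libraries was not settled. In the block fit 0 genes differed between D4 and D3, 748 between BAT and SAT and 182 between D4 and PC61. The difference from D3 had 4 genes with DESeq2, 45 without the filter on low counts, and 0 to 11 with single libraries left out, 11 without D4 DTR+ replicate 1. The difference from SAT had 982 with DESeq2, 1073 with library totals, 887 without the filter and 309 to 679 with single libraries left out, with falls of over 1.5 times without D4 DTR- replicates 2 or 4, D4 DTR+ replicates 2, 3 or 4, SAT DTR- replicate 4 or SAT DTR+ replicate 3. The difference from PC61 had 375, 202 and 455 under those settings and 53 to 269 with single libraries left out, the lowest without PC61 replicate 1 and the highest without D4 DTR+ replicate 1. The cause was not tested. Simulated differences between D4 and D3 of 1 and 2 on the log2 scale were recovered in 23 and 58% of genes. Many differences of these sizes, as well as smaller ones, can therefore be missed.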

Other observations

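The following lists were also counted in D4 BAT. Lysosome and autophagy genes rose in 8 of 25 cases and fell in 0, with a median log2 fold change of 0.25, and 15 rose with library totals. Mitochondrial carriers, which move metabolites across the inner membrane, rose in 1 of 39 cases and fell in 12 (median -0.30), with 3 lower with library totals and 7 without the 3 muscle-rich libraries. Factors of mitochondrial biogenesis fell in 9 of 22 cases and rose in 0. With library totals 0 fell and 2 rose, and 5 fell without DTR+ replicate 4. Cytosolic aminoacyl-tRNA synthetases, which load amino acids onto tRNA, rose in 1 of 20 cases and fell in 2, near the shares of all genes that rose and fell (8.73% and 7.36%).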
